A study of Mus musculus with 8 samples.

Results

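The genes described here are Irx3, Irx5 and Irx6, the 3 Iroquois homeobox genes that lie side by side on mouse chromosome 8, and their neighbours Fto and Rpgrip1l. They were taken by name, and each gene stands for the transcript interval of the deposited table that best matches its RefSeq span (overlap of at least 0.5 of the union). All 5 genes were found, in 10 of the 50398 intervals. Of the 20227 genes named in the table they form 5, and the table does not cover every chromosome. The assay was ChIP-seq for H3K27me3, trimethylation of lysine 27 on histone H3, in E14tg2a cells, a mouse embryonic stem cell line of 129SV background. All cells carried a stable cRAF-ErT2 cassette, a RAF kinase fusion that 4-hydroxytamoxifen (4OHT) switches on and that drives ERK signalling. Culture was in serum medium with LIF and the GSK3 inhibitor Chir99021 (2 µM). For the last 24 h the FGF receptor inhibitor PD173074 (250 nM) took the place of Chir99021. The 0 h cells were then left untreated and the 2 h cells received 250 nM 4OHT. Both states were sampled in clone A and clone B, so each time has 2 H3K27me3 libraries, 4 in all. The input libraries were not analysed here, so densities and their ratios are not corrected for input background.

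H3K27me3 is placed by Polycomb repressive complex 2. In embryonic stem cells it typically covers CpG-rich genes of developmental regulators that are silent until later lineages form. The Irx genes encode TALE-class homeodomain transcription factors that pattern the neural tube, heart and limb, and they sit in a gene-poor stretch. Fto, an RNA demethylase, and Rpgrip1l, a scaffold of the ciliary transition zone, are broadly expressed and are transcribed away from each other. Introns of Fto are known to hold enhancers that act on Irx3 and Irx5 over a long distance, which is why these genes are often discussed as 1 locus.

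The starts of the genes give a first view of the region. RefSeq promoter sequences of GRCm38.p6 matched 3 of the 5 members, Irx3, Fto and Rpgrip1l. The first sequence below holds the 250 bases before the Irx3 start (chr8:91801655-91801904, minus strand). The second holds the 75 bases between the RefSeq records of Rpgrip1l and Fto, whose starts lie on either side of it (chr8:91313292-91313366, plus strand). CG dinucleotides, which read the same on both strands, are in capitals.
Irx3: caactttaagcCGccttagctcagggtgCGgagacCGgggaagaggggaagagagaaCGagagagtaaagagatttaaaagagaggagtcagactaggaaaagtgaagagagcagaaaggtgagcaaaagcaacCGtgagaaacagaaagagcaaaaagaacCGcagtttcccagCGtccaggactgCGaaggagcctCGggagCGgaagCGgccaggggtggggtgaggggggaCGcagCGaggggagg
Rpgrip1l to Fto: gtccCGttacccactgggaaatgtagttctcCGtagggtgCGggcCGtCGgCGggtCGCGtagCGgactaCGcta
The Irx3 window held 13 CG and 56% G and C. Over the 250 bases before the starts of their transcript intervals (91313525 for Fto and 91313222 for Rpgrip1l), Fto held 18 CG and Rpgrip1l 19. These windows overlap each other, and both contain the second sequence. Of 32851 promoter windows of this length, 31.5% held at least as many CG as Irx3, 21.7% as many as Fto and 19.7% as many as Rpgrip1l. The median window held 6. All 3 starts thus had more CG than the median promoter, and the Irx3 start did not have more than its neighbours.

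Counting error was small for all 5 genes. Column totals, which count a read once for every interval it falls in, ran from 70378127 to 92518605. The 5 genes held between 933 counts (Irx3 at 0 h in clone A) and 7416 (Fto at 2 h in clone A). Values are given as density, which divides a count by the interval's length in kb and by its column total and multiplies it by 1000000, and as a multiple of the median gene (0.357). The labelled cell type was checked on the mark itself, since no expression was measured. Of 8 stem cell genes, among them Nanog, Sox2 and Klf4, 0 reached 4 times the median gene, with a range of 0.236 to 0.695 times. All 6 regulators of later lineages tested, such as Sox17 and Cdx2, reached it, at 4.82 to 15.3 times, and so did 1 of 6 fibroblast genes (Thy1, 6.05 times). Of all 20227 genes, 5.78% reached it.

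All 3 Irx genes carried dense H3K27me3 in every library. Irx3 (chromosome 8, 91798511 to 91801654, mm10, minus strand, 3144 bp) gave 4.22 at 0 h and 4.49 at 2 h for clone A, against 3.77 and 4.11 for clone B. Both clone A libraries lay above both clone B libraries, while the times overlapped. Its mean was 4.15 ± 0.297 (SD, n = 4 libraries), 11.6 times the median gene. Irx5 (92357796 to 92361456, plus strand, 3661 bp), which acts with Irx3 in heart and limb, gave 4.36 and 4.45 for clone A against 3.90 and 3.95 for clone B, in the same order of times. Its mean was 4.16 ± 0.279, 11.7 times the median gene. Irx6 (92674289 to 92680956, plus strand, 6668 bp), the outermost gene of the cluster, gave 3.62 and 3.73 for clone A against 3.32 and 3.34 for clone B. Its mean was 3.50 ± 0.205, 9.81 times the median gene. For Irx5 and Irx6, too, the clones did not overlap and the times did.

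Fto and Rpgrip1l lay below the median gene in every library. Fto (91313525 to 91668433, plus strand, 354909 bp) gave 0.232 and 0.226 for clone A against 0.233 and 0.240 for clone B. Its mean of 0.233 ± 0.00561 was 0.652 times the median gene. Rpgrip1l (91217030 to 91313222, minus strand, 96193 bp) gave 0.289 and 0.284 for clone A against 0.253 and 0.272 for clone B. Its mean of 0.274 ± 0.0159 was 0.768 times the median gene, and its 6 matching intervals had means of 0.252 to 0.283. Fto was the more even of the pair, and for Rpgrip1l both clone A values lay above both clone B values. With a limit of 4 times the median gene for calling a gene marked, 3 of 3 Irx genes and 0 of 2 neighbours were marked, beside 5.78% of all 20227 genes. A bulk library cannot tell fewer cells with the mark from less mark per cell.

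**Figure D1:**
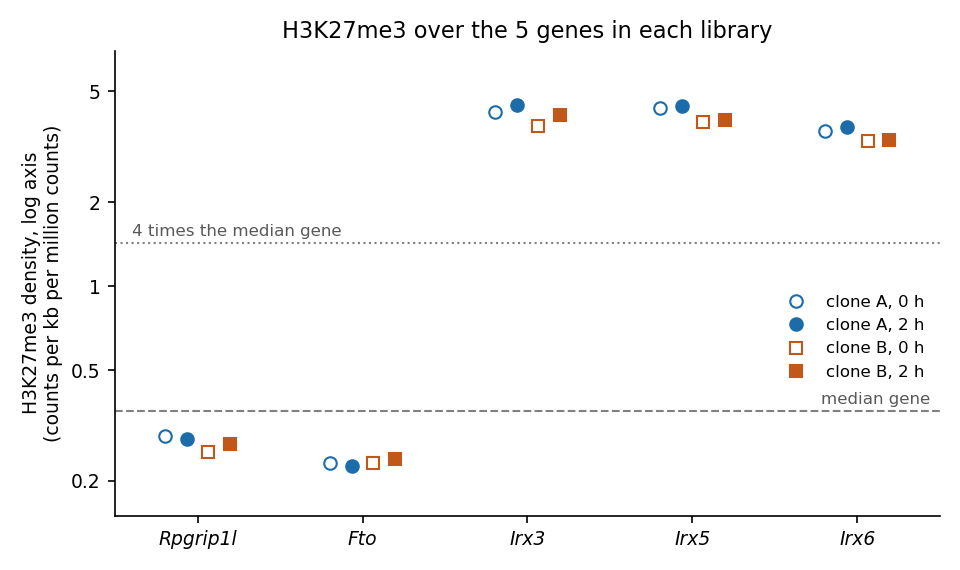
H3K27me3 density of the 5 genes (log axis, counts per kb and per 1000000 in the column), with 1 point for each of the 4 libraries (circles clone A, squares clone B, open 0 h, filled 2 h). Irx3, Irx5 and Irx6 lie between 3.32 and 4.49 and Fto and Rpgrip1l between 0.226 and 0.289, on either side of the dashed line of the median gene at 0.357.

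The Irx genes stood far above their neighbours. Per library, the median log2 density of the Irx genes exceeded the mean of Fto and Rpgrip1l by 4.02 (0 h) and 4.13 (2 h) for clone A, against 3.96 and 3.95 for clone B. The mean difference was 4.02 ± 0.0847 (SD, n = 4 libraries), which is 16.2-fold, with 15.5-fold in the lowest library and 17.6-fold in the highest. In any 1 library the sparsest Irx gene was at least 12.3 times as dense as the denser neighbour. The spread between libraries was small beside this gap. An exact sign-flip test over 4 libraries cannot give a two-sided p under 0.05 (its smallest is about 0.13), and no p is given for this summary because the genes were chosen with earlier results known.

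Within the cluster Irx3 and Irx5 could not be ordered. Their log2 difference was −0.01 ± 0.05 (SD, n = 4), with Irx3 higher in 2 of 4 libraries, both of them at 2 h. Irx6 was lower than both: Irx3 exceeded it by 0.24 ± 0.05 and Irx5 exceeded it by 0.25 ± 0.02 on the log2 scale, in 4 of 4 libraries each. Fto was lower than Rpgrip1l in 4 of 4 libraries, by 0.32 on average in clone A and 0.15 in clone B. The order of the levels was thus Irx5 and Irx3, then Irx6, then Rpgrip1l, then Fto.

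Length differs as strongly as density between these genes. The Fto interval is 113 times as long as that of Irx3, and a density over a long interval averages a dense stretch with its surroundings. Ranked among genes of similar length (0.5 to 2 times its own), Irx3 stood at percentile 97.8 of 4315 genes, Irx5 at 97.9 and Irx6 at 98.1. Fto stood at percentile 25.4 of 672 genes and Rpgrip1l at 47.9 of 3062. Over all genes the percentiles were 99.2, 99.2, 98.6, 34.1 and 39.3 in the same order. So the Irx genes stayed near the top with length taken into account, and Rpgrip1l came close to the middle. On chromosome 8, 14 of 1613 genes were denser than Irx3, 13 denser than Irx5 and 22 denser than Irx6.

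Shorter isoform intervals gave a finer view inside the neighbours. A 97.2 kb interval at the start of Fto (91313491 to 91410691) measured 0.358 ± 0.0104 (SD, n = 4 libraries), 1.00 times the median gene. The other 258 kb of Fto, obtained by subtracting its counts from those of the long interval, measured 0.185 ± 0.00434. The start was 1.93 ± 0.0383 times as dense as the rest, with 1.89 to 1.97 times over the 4 libraries, so the start was the denser stretch in each of them. The Irx3 interval alone held a count equal to 33.8% to 42.3% of that in the 97.2 kb start of Fto, so the interval could hold a short dense block of that size without showing it. In Rpgrip1l, the first 25.5 kb from the start measured 0.251 ± 0.0162, a 9863 bp stretch further on 0.301 ± 0.0372, and the last 33779 bp 0.300 ± 0.0183. No rise toward the start was seen there. The whole count of that first stretch was 48.1% to 50.6% of the Irx3 count over the libraries, so it did not hold a block as long and as dense as the Irx3 interval.

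Dense signal around Irx3 was narrow compared with the distances between the genes. The intervals of Rpgrip1l and Fto lie 302 bp apart, that of Irx3 130.1 kb beyond Fto, Irx5 556.1 kb beyond Irx3 and Irx6 312.8 kb beyond Irx5, over 1463.9 kb in all. Gm39222, a noncoding transcript that lies 0.768 kb beyond the end of Irx3, measured 3.13 ± 0.0464, 8.76 times the median gene. An interval of 3144 bp inside the Irx3 antisense gene Irx3os (91804234 to 91807377), 2.58 kb before the Irx3 start, measured 4.68 ± 0.291, 13.1 times the median gene and above Irx3 itself. Gm36380, 4.72 kb beyond the end of Irx3, stood at 0.949 ± 0.126 (2.66 times), and Gm39223, 20.9 kb before the Irx3 start, stood at 1.03 ± 0.0911 (2.88 times). Gm36670, Gm36843 and Gm28516, in the gap between Irx3 and Irx5, lay at 2.19, 1.27 and 1.70 times. Crnde, a noncoding gene that starts 1.68 kb from the Irx5 start, averaged 0.698 ± 0.0858 (1.96 times) over its 30.1 kb. ChIP-seq reads come from double-stranded DNA, so over a shared stretch the signal of a gene and its antisense partner cannot be told apart.

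Averaged over its whole interval, no other coding gene of the wider region approached the Irx genes. From 2 Mb before Rpgrip1l to 2 Mb after Irx6, 64 further genes had an interval, 34 of them coding. By that average 0 of the coding genes were marked, beside 5.78% of all genes, coding and noncoding. A count of 0 in 34 is not unusual at that share. Short noncoding transcripts near the starts of Gnao1 and Nlrc5 were marked, as described below. The chromatin remodeller Chd9 (0.637 times the median gene), the retinoblastoma relative Rbl2 (0.320) and Aktip (0.311), on the far side of Rpgrip1l, lay below the median. Noncoding transcripts there were also low, with Gm36243 (0.924) and Gm36163 (0.812) overlapping Rpgrip1l, 4831440D22Rik (0.463) inside Fto, and Gm39221 (0.418) next to Chd9. Beyond Irx6 came the matrix metallopeptidase Mmp2 (1.86), Lpcat2 (1.20), Capns2 (1.59) and the noradrenaline transporter Slc6a2 (2.82), which was the densest coding gene of the window outside the cluster. The carboxylesterase genes Ces1a, Ces1b, Ces1c, Ces1d, Ces1e, Ces1f, Ces1g, Ces1h and Ces5a ran from 1.34 to 2.38 times.

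Further out, coding genes lay on both sides of the median gene. Nudt21, Psme3ip1, Nup93, Rspry1, Ogfod1 and Herpud1 lay between 0.239 and 0.445 times the median gene, and Bbs2, Mt2 and Arl2bp between 0.606 and 0.732. Tox3 (1.14), Mt1 (1.36), Mt4 (1.52), Slc12a3 (1.69), Nlrc5 (1.87), Mt3 (1.91) and Cpne2 (2.53) lay above it. Noncoding genes Gm35542, Gm35593, Gm39219, Gm46048, Gm35797, Gm39220, Gm35850, Gm35963, Gm19935, Gm30132, Gm26843, Gm39224, Gm39226, Gm39227, Gm39228 and Gm38555 ran from 0.798 to 1.95 times. Besides Gm39222, 3 noncoding genes were marked: 4930488L21Rik at 12.1, 9330175E14Rik at 7.08 and the microRNA gene Mir7072 at 4.99 times, the last from an interval of 60 bp. The first shows what averaging does, since its 1862 bp lie inside Gnao1, whose own 158551 bp averaged 1.74 times. It lies near the start of Gnao1, and its density of 4.32 was above those of Irx3 and Irx5. The second overlaps the start of Nlrc5, whose 92915 bp averaged 1.87 times. A low average over a long coding gene thus does not exclude a dense start. The Mir7072 interval held only 6 to 13 counts per library and stood at percentile 64.7 of 184 genes of similar length.

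**Figure D2:**
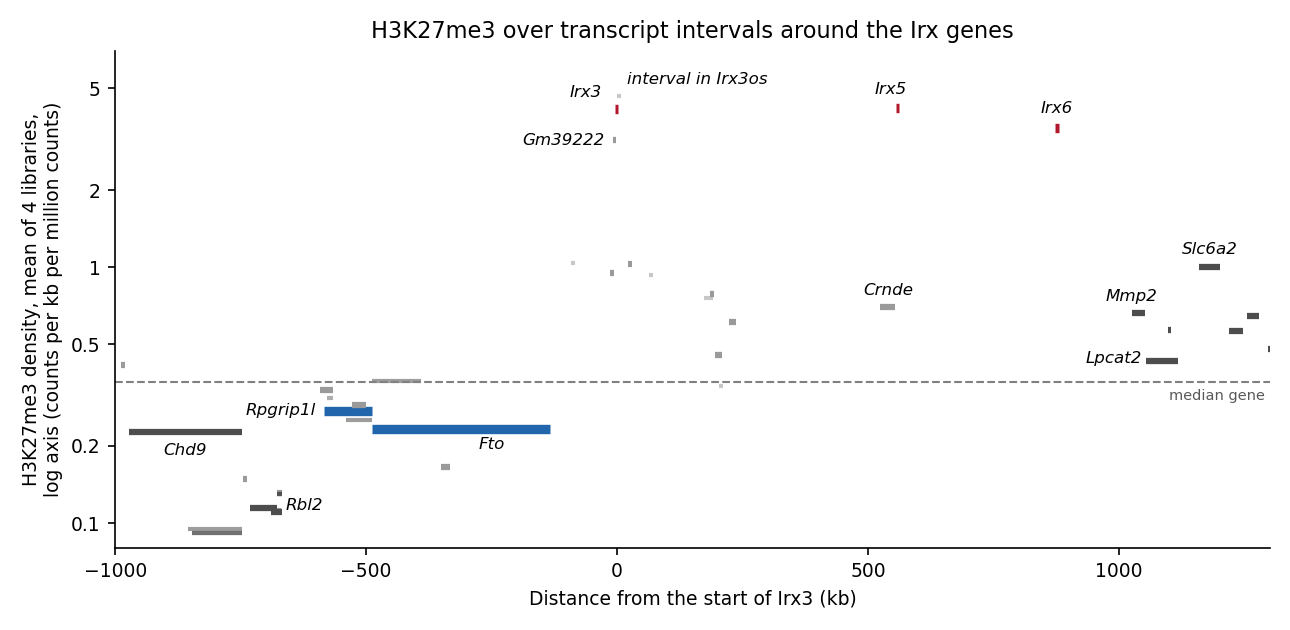
Mean H3K27me3 density of transcript intervals (log axis, counts per kb and per 1000000 in the column) by distance in kb from the Irx3 start, for the central stretch of the region. Red bars are the Irx genes, blue bars Fto and Rpgrip1l, dark grey other coding genes, light grey noncoding genes and unnamed isoform intervals, and the shortest bars are drawn wider than scale to be visible. Dense signal sits at Irx3, Irx5, Irx6, Gm39222 and the interval in Irx3os, all above 3, while Fto at 0.233 and Rpgrip1l at 0.274 lie below the dashed line at 0.357.

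Related genes elsewhere in the table were compared by list. Of 15 other TALE homeobox genes, 7 were measured and 0 were marked, beside 5.78% of all genes, with a median density of 0.394. A count of 0 in 7 is not unusual at that share. The densest were Meis3 (2.17 times the median gene), Pknox2 (2.06), Meis2 (1.64) and Pbx3 (1.10), which encode homeodomain factors of the Meis and Pbx groups, and the sparsest were Tgif2 (0.291) and Pbx4 (0.619). Irx1, Irx2 and Irx4, which form the other Iroquois cluster, were among the 8 not measured, all on chromosomes without intervals in the table. Neural tube patterning factors, among which Irx3 acts, were much closer to the Irx genes: 7 of 8 measured were marked, with a median density of 3.60. Nkx6-1 stood at 13.3 times the median gene, Gsx2 at 12.7, Dbx1 at 12.2 and Nkx2-2, a ventral neural tube factor, at 11.4. The lowest were Pax3 at 5.81 and Pax7 at 3.99 times, over intervals of 95870 and 95968 bp.

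Lists of genes related to the neighbours by function or family had low median densities. Of 12 measured ciliary transition zone genes, 0 were marked, beside 5.78% of all genes, with a median density of 0.176. A count of 0 in 12 is not unusual at that share. B9d2 stood at 2.03 times the median gene, Ahi1 at 0.848 and Nphp4 at 0.790, and the lowest were Tctn1 (0.296) and Rpgr (0.240). Rpgrip1l at 0.768 lay inside this range. Of 12 genes measured on the RNA methylation list, which also holds Alkbh genes as relatives of Fto by family, 0 were marked. Their median was 0.0891, with Mettl14 at 0.316, Alkbh6 and Alkbh2 at 0.292, Alkbh8 at 0.287, Ythdf3 at 0.232 and Ythdc1 at 0.227 times. Fto at 0.652 times lay above all 12 of them, over a far longer interval. These lists are set side by side as a description and no test compared them.

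**Figure D3:**
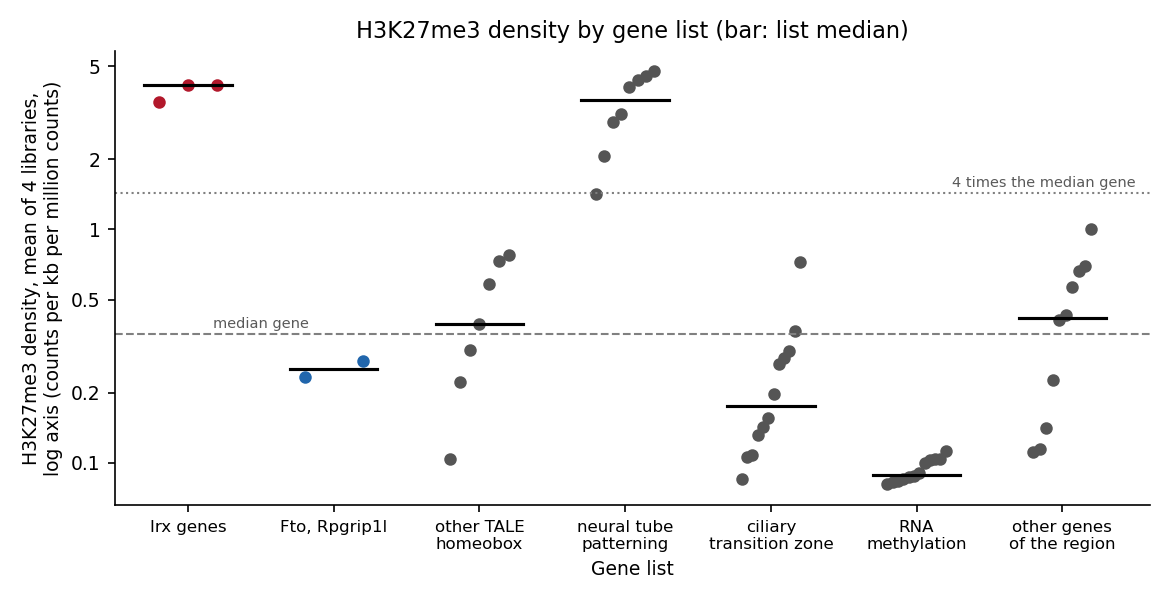
Mean H3K27me3 density (log axis, counts per kb and per 1000000 in the column) of each measured gene by list, with the list median as a bar. The Irx genes lie with the neural tube patterning genes, whose median is 3.60, and above the other TALE homeobox genes, whose median is 0.394. Fto and Rpgrip1l lie below the dashed line of the median gene, and the dotted line marks 4 times that gene.

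The comparison of 2 h with 0 h asks what switching on RAF and ERK signalling did to the mark, and none of the 5 genes passed the test. Irx3 averaged 3.99 ± 0.317 at 0 h and 4.30 ± 0.264 at 2 h (SD, n = 2 libraries each), a fitted log2 change of 0.11 (SE 0.12, 95% interval −0.19 to 0.40). Clone A gave 0.11 and clone B 0.10 for this change. Leaving out 1 library moved it to between 0.019 (without clone A at 2 h) and 0.19 (without clone A at 0 h). The clones are not balanced in those fits. The change was 0.02 (interval −0.28 to 0.33) for Irx5 and 0.03 (−0.25 to 0.30) for Irx6, and for both the clones went opposite ways. The fitted difference was −0.0033 (−0.19 to 0.18) for Fto and 0.03 (−0.23 to 0.30) for Rpgrip1l. The adjusted p by edgeR's quasi-likelihood test with Benjamini-Hochberg adjustment rounded to 1 for all 5. Of all 50037 intervals, 0% were called higher at 2 h and 0% lower by edgeR, with 188 (0.376%) at an unadjusted p under 0.05. This fit has no clone term and leaves the difference between the clones in its spread, so it can miss small changes. DESeq2 also called 0, with 2 at an unadjusted p under 0.05. With clone as a block, 2078 intervals (4.15%) had an unadjusted p under 0.05 by edgeR, and no gene passed. The 95% interval narrowed to −0.04 to 0.25 for Irx3, −0.11 to 0.15 for Irx5 and −0.10 to 0.14 for Irx6. It narrowed to −0.10 to 0.09 for Fto and −0.08 to 0.15 for Rpgrip1l. Without the block, the interval that reached furthest from 0 was that of Irx3, at 0.40.

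The gap between the Irx genes and their neighbours was 0.05 larger on the log2 scale at 2 h (SD over the 4 libraries 0.0847). Clone A gave 0.11 and clone B −0.0030. With 2 libraries per time an exact permutation test cannot give a two-sided p under 0.05 (its smallest is 0.33), so that test could not pass. Of the genes in the TALE, neural tube, ciliary, RNA methylation and region lists, 0 were called in either direction over 2 h. The median change of the 10 measured region genes was −0.01, beside 0.01 for all intervals.

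**Figure D4:**
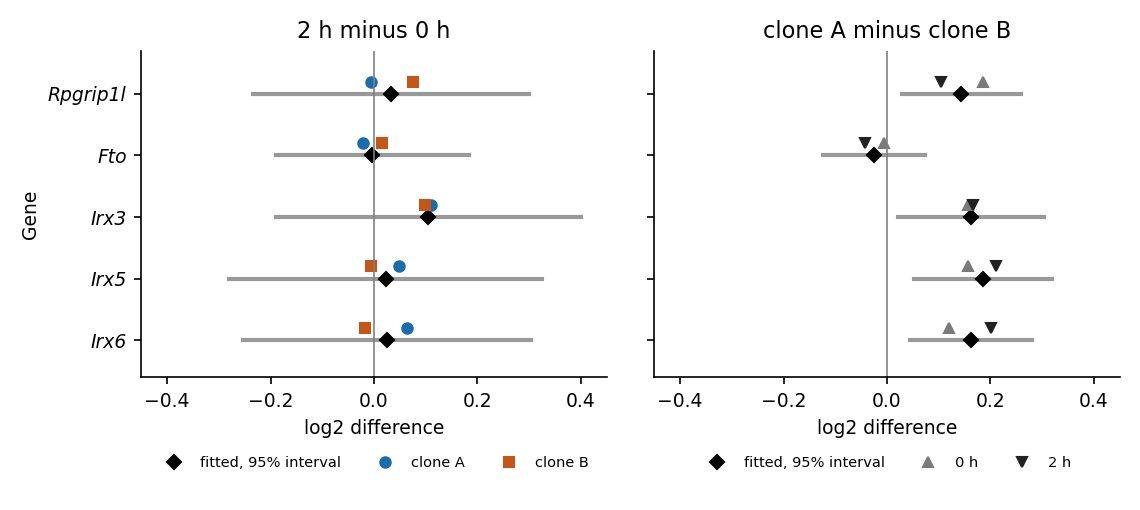
Log2 differences of H3K27me3 for the 5 genes, 2 h minus 0 h on the left and clone A minus clone B on the right. Diamonds are fitted values with bars for the 95% interval (unadjusted for the number of tests), and the smaller symbols are single clones or single times. The fit on the left has no clone term. All intervals on the left include 0, and on the right that of Fto alone does.

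The labels also name the clones, and 2 of the Irx genes differed between them. Irx5 averaged 4.40 for clone A against 3.93 for clone B, a log2 difference of 0.19 (SE 0.07, adjusted p = 0.0281 by edgeR's quasi-likelihood test with time in the model). Irx6 averaged 3.67 and 3.33, a difference of 0.16 (SE 0.06, adjusted p = 0.0303). Irx3 averaged 4.35 and 3.94, a difference of 0.16 (SE 0.07) that did not pass (adjusted p = 0.0787), and Rpgrip1l differed by 0.14 (SE 0.06, adjusted p = 0.0523). Fto averaged 0.229 for clone A against 0.236 for clone B (−0.03, SE 0.05, adjusted p = 0.773). Clone A was higher at both times for the 3 Irx genes and Rpgrip1l and lower at both times for Fto.

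Calls for a higher clone A thus covered 2 of 3 Irx genes, with 0 of 2 neighbours called either way. The share was 16.9% over all intervals, beside 9.91% called lower, and 51.1% over marked genes. The Irx differences of 0.16 to 0.19 lay near the median of 0.19 over the 1160 marked genes tested, so neither their number nor their size set them apart. Both calls were lost with DESeq2 size factors (adjusted p = 0.0658 for Irx5 and 0.0888 for Irx6 by edgeR) and with DESeq2 itself (0.319 and 0.313). Rpgrip1l passed when 1 interval per gene was tested (adjusted p = 0.0358 by edgeR) or a mean count of at least 50 was required (0.0492). Without the clone B library at 2 h the Irx6 difference was 0.10. Without the clone B library at 0 h the Rpgrip1l difference was 0.092, and leaving out 1 library gave −0.056 to −0.0067 for Fto. By the same test 6 of 8 neural tube genes were higher in clone A and 0 lower, and 2 of 7 other TALE genes were higher and 2 lower. Of the 12 ciliary genes 1 was higher and 0 lower, and of the 12 genes on the RNA methylation list 0 passed either way. Each clone has 1 library per time and both come from 1 line, so clone and library handling cannot be told apart.

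Genes whose level over the 4 libraries was closest to that of Irx3 were Gpr6, Inafm2, Hoxd8, C2cd4d and Foxc2, out of 18987 genes of at least 1000 bp. Likeness was the root mean square distance in log2 density over the 4 libraries, which was 0.025 for Gpr6, an orphan receptor gene, and 0.054 for Foxc2, a forkhead regulator of mesoderm. Their densities ran from 4.03 to 4.30. For Fto the closest were Map3k15, Ppp1r12b, Acvr1, Gm34513 and Dtd1, at distances of 0.019 to 0.031 and densities of 0.233 to 0.235. All 4 libraries share a cell line and an antibody, and the libraries' depth enters each density.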

How the data were processed

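H3K27me3 ChIP-seq libraries of clones A and B at 0 h and 2 h were analysed. Per the file headers, the table the authors deposited lists the start and end of each transcript interval with a column of raw counts for each library, taken here to cover the whole interval, introns included. Bowtie2, bedtools and mm10 are named in the submitters' processing notes; their versions, filters and strand handling are not stated there. A further 12 per-library columns and 4 columns of means were not used. Of 50398 intervals, 84.8% overlap another, so reads can be counted repeatedly and column totals are not depths; counting error is small at 933 counts or more.

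RefSeq genes (GRCm38.p6, the assembly behind mm10) gave 43793 intervals a name, where the overlap was at least 0.5 of the union and 0.2 above that of the next gene. Some chromosomes have no intervals in the table, so all genes, the median gene and the percentiles refer to the chromosomes it holds. File starts count from 0 and are printed from 1. Counts were tested over all intervals with edgeR 4.0.16 (quasi-likelihood, TMM, filterByExpr, Benjamini-Hochberg, threshold 0.05; R 4.3.3) for time and, with time in the model, for clone, after being tested on simulated data. The simulated data for the time test held no clone difference, so they could not show how that test behaves beside one. DESeq2 1.42.0 was an alternative. Python 3.11.15, pandas 2.3.3 and SciPy 1.17.1 were used. The labels pair libraries by clone (correlation of their deviations from the time means 0.514 across 50037 intervals, which are not independent). P-values measure the spread between these libraries, which may be technical.

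The members and gene lists were chosen with earlier results of these data known. Named were the members, every gene with an interval within 2 Mb, the 4 densest and 2 sparsest genes of each list, and the 5 genes nearest to Irx3 and to Fto, except for 2 genes that are not reported here. The cell type markers are reported once, and the exact tests planned for the gap between the Irx genes and their neighbours are not reported as p-values because of that choice.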

Additional observations from a re-analysis of the deposited data

Results flagged for a closer look

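Several changes over 2 h went opposite ways in the 2 clones, and with 1 library per clone and time none of these differences was tested. For Irx5 clone A gave a log2 change of 0.05 and clone B −0.01 (difference 0.0542), and for Irx6 the clones gave 0.06 and −0.02 (difference 0.0813). Fto gave −0.02 and 0.01 (difference −0.0368) and Rpgrip1l −0.01 and 0.08 (difference −0.0815). The gap between the Irx genes and their neighbours gave 0.11 and −0.0030 (difference 0.113). For the 4 genes, each of these differences was smaller than the distance from the fitted change to either end of its 95% interval.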

How the results depend on the processing

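Over 2 h, none of the 5 genes passed under any of 12 alternatives, and Irx3 alone kept its direction in all of them. Leaving out each library in turn gave 0 to 1 intervals called lower, the 1 without clone A at 2 h. It gave log2 changes of −0.087 to 0.10 for Irx5, −0.079 to 0.10 for Irx6, −0.048 to 0.018 for Fto and −0.064 to 0.13 for Rpgrip1l, and a change of the gap between the Irx genes and neighbours of −0.037 to 0.14. Column totals without further scaling gave 0.000614 for Fto. For the genes, these reversals lay within the 95% intervals. Leaving out 1 library unbalances the clones, and with no clone term those values mix the clone difference with the change over time. How much of each reversal this makes up was not tested. With the clones paired as a block, 0 intervals were called higher and 0 lower, with 2078 at an unadjusted p under 0.05, and no gene's call changed.

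Between clones, DESeq2 called 3431 intervals higher in clone A and 1393 lower, for reasons not tested, and testing 1 interval per gene gave 3149 and 2056, with 19948 intervals tested. All 5 genes kept their direction in 12 of 12 alternatives. Irx3 did not pass at 0.05 in any (adjusted p 0.0551 to 0.446), nor did Fto (0.423 to 0.808), and Irx5 ranged from 0.0166 to 0.319 and Irx6 from 0.0192 to 0.313. Leaving out a library leaves no residual degrees of freedom for the clone comparison, so those are values with no test. The gap of 4.02 ran from 3.96 to 4.14 over its alternatives, and 3 Irx genes stayed marked at limits of 2 and 8 times. Counts of this size leave little counting error, and 2 libraries per time limit the precision.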

Other observations

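Near the Irx genes, sparser noncoding genes and a dense interval were called in opposite directions between the clones. Of the 7 noncoding genes between Fto and Irx6, 5 were lower in clone A by value, 3 were called lower and 0 higher by edgeR. The called ones were Gm28516 (log2 −0.37), Gm36380 (−0.29) and Crnde (−0.27), at 1.70 to 2.66 times the median gene. The dense interval inside Irx3os, by contrast, was called higher in clone A (0.17, adjusted p = 0.0455 by edgeR). Among the 1160 marked genes tested, 593 shared this call and 32 had the opposite one. Their median log2 difference was 0.19, so the interval was not unusual for marked genes. Gm39222, the dense noncoding gene beside Irx3, was not called (0.05, adjusted p = 0.730 by edgeR). Of the other unnamed intervals between Fto and Irx6, only that in LOC115486949 was called, as lower (−0.22, adjusted p = 0.0103 by edgeR). Over the 63 tested genes of the window outside the members, 1 was called higher in clone A, Chd9 (0.24), and 14 were called lower, beside 16.9% and 9.91% of all intervals. The lowest values were in the metallothionein stretch, with Gm39228 at −1.40, Mt1 at −0.87, and Mt3 at −0.74, all from short intervals with few counts (23, 30 and 54 at 0 h in clone A). The stretch was mixed, since Mt2 was higher in clone A by value (0.18) and Mt4 lower (−0.34), and neither was called. The genes in this paragraph were singled out after their values were seen, and the cause of the split was not tested.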
